A study of Homo sapiens with 12 samples.

Results

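The genes ITGA2B, ITGB3, GP1BA, GP9, PF4, VWF, FLI1, TUBB1 and RUNX1, which mark megakaryocytes and platelets, were followed over 12 expression arrays of a study of the microRNA miR-16. They were found by the gene symbols in the array's annotation. Of these 9 genes, 8 had probe sets that named them alone, 24 probe sets of 54613 tested. RUNX1 was named only by 13 probe sets that also named other genes, and these are described apart. The arrays came from MMS1 and RPMI8226, both labelled as multiple myeloma cell lines, with 3 arrays for each line carrying a control mock sponge and 3 for each carrying a miR-16 sponge. All 4 groups had received a GFP lentivirus, had been sorted by flow cytometry and had been expanded, so the control arrays are of transduced cells and not of the parent lines. Part of the labels spell the second line RPMI or RPMI826, and part call the sponge an siRNA, a knock down or miR16 KO. A sponge is a transcript with repeated microRNA binding sites that holds the microRNA away from its targets. The design text gives the aim as mimicking the 13q loss of myeloma and looking for genes that miR-16 represses. The level of miR-16 itself was not analysed here.

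Megakaryocytes are the large bone marrow cells that shed platelets. They share a progenitor with red cells, and GATA1 with its cofactors serves both lineages, while FLI1 and RUNX1 push the shared progenitor toward the megakaryocyte. As they form and mature, the cells switch on the receptors by which platelets hold on to vessel walls and to each other. They fill granules with adhesive proteins and chemokines, and build long extensions from a platelet form of tubulin. Plasma cells, from which myeloma arises, are not known for any of these features.

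The sequences below show what the sponge is directed at and the promoters of 2 platelet receptor genes, on which GATA and ETS factors measured here are known to act. They are RefSeq sequences of the assembly GRCh38.p14. The mature miR-16 is made from chr13:50049027-50049048 on the minus strand and from chr3:160404754-160404775 on the plus strand, and its seed, bases 2 to 8, is in capitals. The promoter windows are the 250 bases before the annotated start, chr3:129060529-129060778 on the plus strand for GP9 and chr17:44389650-44389899 on the minus strand for ITGA2B. Capitals there mark GATAA, a form of the GATA motif, and AGGAAG, a form of the motif of ETS factors such as FLI1, each searched on both strands.
hsa-miR-16-5p: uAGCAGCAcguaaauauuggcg
GP9 promoter: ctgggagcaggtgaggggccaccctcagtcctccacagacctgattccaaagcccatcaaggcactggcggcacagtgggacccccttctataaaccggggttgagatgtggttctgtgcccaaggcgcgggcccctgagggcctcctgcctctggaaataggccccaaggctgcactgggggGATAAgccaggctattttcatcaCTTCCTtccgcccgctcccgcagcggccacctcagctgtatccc
ITGA2B promoter: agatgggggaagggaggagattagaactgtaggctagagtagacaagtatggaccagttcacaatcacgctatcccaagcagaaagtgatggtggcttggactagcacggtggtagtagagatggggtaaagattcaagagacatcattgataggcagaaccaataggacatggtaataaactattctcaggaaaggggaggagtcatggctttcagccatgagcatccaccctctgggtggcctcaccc
The GP9 window held GATAA at 67 to 63 bases before the start and CTTCCT, which is AGGAAG on the opposite strand, at 44 to 39 bases before it. The windows of ITGA2B, TUBB1 and RUNX1 held neither set of letters. Other forms of these motifs were not searched, so their absence is not shown. Of 35116 promoter windows of the same length, 20.4% held GATAA or its complement, 28.7% held AGGAAG or its complement and 6.07% held both. A match is a description of the letters and not a binding site.

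Each value is the deposited log2 signal of a probe set on an array, with a lower bound of 4, and the median probe set of an array stood at 5.80 to 5.90. A difference of 1 is a doubling of signal. The number of arrays limits the precision, and the median standard error of a difference between groups was 0.14. The labels tie no array to its own flask, so p-values measure only the spread between these arrays, which may be technical. Adjusted p-values are two-sided values of limma, corrected by the Benjamini-Hochberg method across the 54613 probe sets, and a gene or probe set is said to have risen or fallen when that value was under 0.05. In 18S ribosomal RNA the first replicate of the MMS1 miR-16 sponge was unlike the rest, with a mean of 7.84 over 3 control probe sets against 9.56 to 11.1 on the other 11 arrays.

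The labelled cell type was checked against marker lists. Of 10 plasma cell markers, TNFRSF17, JCHAIN, CD38 and MZB1 were below the array median on all 12 arrays, which is not absence. Of SDC1, IRF4, PRDM1, XBP1, SLAMF7 and TNFRSF13B, 5 were above it on all 12. Of 10 measured erythroid markers, 8 were above the array median on all 12 arrays, with the embryonic globin gene HBE1 between 13.80 and 14.40. The highest value of any tested probe set on any array was 14.7. Neither line therefore showed the whole plasma cell set above the median, and both showed erythroid genes above it. As a whole these markers do not bear out the myeloma label, and the identity of the lines was not tested. Of 10 endothelial markers, listed because endothelium also makes VWF, 6 were below the array median on all 12 arrays and 2 above it on all 12. In bulk RNA, fewer cells of a type and less RNA per cell cannot be told apart.

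No member gene passed the test for a change with the miR-16 sponge in either line. Over the 8 genes, each read by the probe set with the highest mean, 0 of 8 were called in MMS1, where 12.4% of 19775 genes were called, and 0 of 8 in RPMI8226, where the share was 0.217%. No member reached an unadjusted p under 0.05 in either comparison, where 12261 and 7459 of all 54613 probe sets did. The only tool run was limma. In MMS1 a share of 12.4% comes to 0.993 genes of 8, so a count of 0 lies near the background and is no result about the members. The 3 sponge arrays overlapped the 3 control arrays for all 8 genes in both lines, while 31.1% of all genes did not overlap in MMS1 and 24.9% in RPMI8226. The median change of the members was -0.03 in MMS1 and 0.04 in RPMI8226, beside -0.04 and -0.02 over all genes. For these probe sets the 95% intervals of the single changes lay within 0.724-fold and 1.46-fold in MMS1 and within 0.712-fold and 1.42-fold in RPMI8226. Over all 24 probe sets naming a member alone they lay within 0.606-fold and 2.03-fold in MMS1 and within 0.556-fold and 1.63-fold in RPMI8226. Changes within these intervals remain possible, so the genes are not shown to be unaffected. The 8 genes had means of 5.47 to 6.75, beside array medians of 5.80 to 5.90, and signal over background was not tested.

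**Figure D1:**
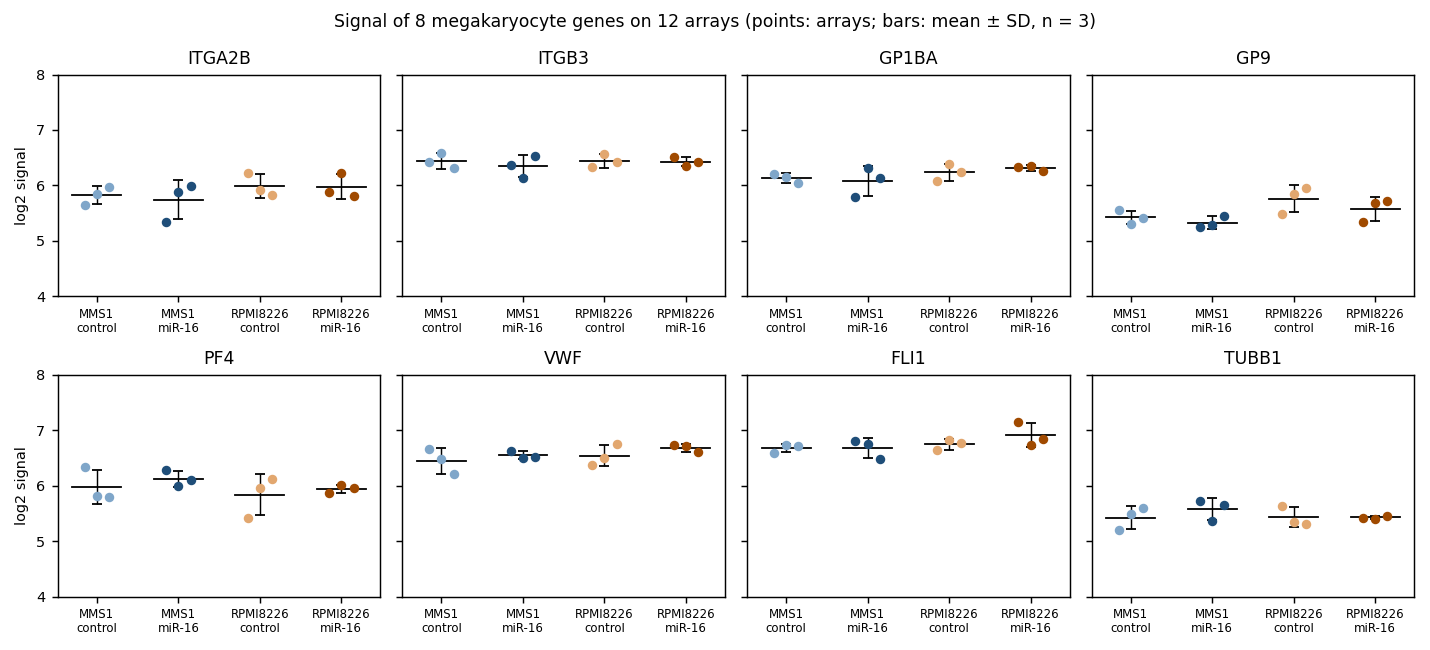
Log2 signal of 8 megakaryocyte genes in the 4 groups; points are arrays and bars are the mean ± SD of 3 arrays. All values lie between 5.19 and 7.15, and the groups overlap within each line for every gene.

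ITGA2B and ITGB3 encode the paired chains of glycoprotein IIb/IIIa, the fibrinogen receptor by which platelets aggregate. ITGA2B signal was 5.65, 5.85 and 5.97 on the MMS1 control arrays and 5.34, 5.88 and 5.99 on the MMS1 sponge arrays. It was 6.23, 5.92 and 5.82 on the RPMI8226 control arrays and 5.87, 6.23 and 5.82 on the RPMI8226 sponge arrays. The lowest of the 12 values was the MMS1 sponge replicate 1, and the other 11 arrays of both lines mixed. The difference was -0.08 ± 0.18 (SE) in MMS1 (limma, adjusted p = 0.851) and -0.02 ± 0.18 in RPMI8226 (limma, adjusted p = 0.98). ITGB3, whose product also pairs with the alpha-V chain on many other cells, read 6.43, 6.59 and 6.31 on the MMS1 control arrays against 6.37, 6.13 and 6.54 on the sponge arrays. In RPMI8226 its values were 6.32, 6.57 and 6.42 on the control arrays against 6.52, 6.35 and 6.43 on the sponge arrays. ITGB3 had the smallest spread of the 8 genes over the 12 arrays, with an SD of 0.13, and no group stood apart. Its difference was -0.10 ± 0.13 (SE) in MMS1 (limma, adjusted p = 0.723) and -0.01 ± 0.13 in RPMI8226 (limma, adjusted p = 0.98).

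GP1BA and GP9 encode chains of the GPIb-IX-V complex, which catches von Willebrand factor on damaged vessel walls. GP1BA signal was 6.21, 6.16 and 6.04 on the MMS1 control arrays and 5.79, 6.32 and 6.13 on the MMS1 sponge arrays. The sponge arrays of MMS1 spread on both sides of the controls. In RPMI8226 the values were 6.08, 6.38 and 6.24 with the control sponge and 6.34, 6.35 and 6.26 with the miR-16 sponge, again mixed. The difference for GP1BA was -0.05 ± 0.13 (SE) in MMS1 (limma, adjusted p = 0.871) and 0.08 ± 0.13 in RPMI8226 (limma, adjusted p = 0.842). GP9 signal was 5.55, 5.31 and 5.41 on the MMS1 control arrays and 5.24, 5.28 and 5.46 on the MMS1 sponge arrays. In RPMI8226 it was 5.49, 5.84 and 5.95 on the control arrays and 5.33, 5.69 and 5.71 on the sponge arrays. The difference with the sponge was -0.10 ± 0.14 (SE) in MMS1 (limma, adjusted p = 0.763) and -0.18 ± 0.14 in RPMI8226 (limma, adjusted p = 0.621). Of the 8 genes, GP9 had the widest range of group means, 0.43, with both RPMI8226 means above both MMS1 means. RPMI8226 control arrays were 0.34 ± 0.14 (SE) above MMS1 control arrays (limma, adjusted p = 0.207, unadjusted p = 0.0356), and the lowest RPMI8226 array lay within the range of the MMS1 arrays. GP9 was read by a single probe set of the x_at type, which marks probes that can bind other transcripts too.

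VWF and PF4 are products that platelets carry in their alpha granules, VWF as an adhesive protein and PF4 as a chemokine. VWF signal was 6.66, 6.47 and 6.21 on the MMS1 control arrays and 6.63, 6.49 and 6.52 on the MMS1 sponge arrays. It was 6.37, 6.51 and 6.75 on the RPMI8226 control arrays and 6.73, 6.71 and 6.60 on the RPMI8226 sponge arrays. In both lines the sponge arrays lay inside the range of their controls. The difference for VWF was 0.10 ± 0.13 (SE) in MMS1 (limma, adjusted p = 0.732) and 0.14 ± 0.13 in RPMI8226 (limma, adjusted p = 0.696). PF4 signal was 6.33, 5.81 and 5.79 with the control sponge and 6.28, 6.0 and 6.10 with the miR-16 sponge in MMS1. In RPMI8226 it was 5.42, 5.96 and 6.13 with the control sponge and 5.87, 6.01 and 5.96 with the miR-16 sponge. The RPMI8226 control arrays held the lowest PF4 value and the MMS1 control arrays the highest. The difference for PF4 was 0.15 ± 0.18 (SE) in MMS1 (limma, adjusted p = 0.71) and 0.11 ± 0.18 in RPMI8226 (limma, adjusted p = 0.846). PF4 also had only an x_at probe set, and its near copy PF4V1 makes its level uncertain.

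TUBB1 encodes the tubulin found almost only in platelets and their parent cells, where it forms the coil at the platelet rim. Its signal was below the array median on all 12 arrays. It was 5.19, 5.48 and 5.60 on the MMS1 control arrays and 5.72, 5.36 and 5.66 on the MMS1 sponge arrays. In RPMI8226 it was 5.64, 5.34 and 5.31 on the control arrays and 5.42, 5.40 and 5.45 on the sponge arrays. The RPMI8226 sponge arrays were the most alike, and no group lay apart from its partner. The difference was 0.15 ± 0.14 (SE) in MMS1 (limma, adjusted p = 0.576) and -0.0019 ± 0.14 in RPMI8226 (limma, adjusted p = 0.997).

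FLI1 encodes an ETS transcription factor that switches on megakaryocyte genes, among them glycoprotein genes named above. Its 6 probe sets had means of 4.45 to 6.75, so the level of the gene is uncertain, and the brightest was used. On that probe set its signal was 6.60, 6.73 and 6.72 on the MMS1 control arrays and 6.81, 6.75 and 6.48 on the MMS1 sponge arrays. It was 6.64, 6.82 and 6.77 on the RPMI8226 control arrays and 7.15, 6.74 and 6.84 on the RPMI8226 sponge arrays. The highest value was RPMI8226 miR-16 sponge replicate 1, and the other values of the 4 groups mixed. The difference was -0.0042 ± 0.13 (SE) in MMS1 (limma, adjusted p = 0.99) and 0.16 ± 0.13 in RPMI8226 (limma, adjusted p = 0.617).

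The sponge effects of the lines were compared directly by subtracting the MMS1 effect from the RPMI8226 effect. Of the 8 members 0 differed, where 5.9% of all genes did, and the differences ran from -0.16 for TUBB1 to 0.17 for FLI1 (limma, adjusted p = 0.692 to 0.96). Between the lines without the sponge, 0 of 8 differed, where 10.3% of all genes did, and with the sponge 0 of 8, where 20.6% did. Members with an unadjusted p under 0.05 numbered 0 for the difference of effects, 1 for the control arrays, which was GP9, and 0 for the sponge arrays. Of all 54613 probe sets, 10067, 10775 and 16438 had one. The line groups overlapped for all 8 members, while 32.5% of all genes did not overlap among control arrays and 37.2% among sponge arrays. The group with the highest mean was RPMI8226 miR-16 sponge for GP1BA, VWF and FLI1, RPMI8226 control for ITGA2B and GP9, MMS1 miR-16 sponge for PF4 and TUBB1, and MMS1 control for ITGB3. For no member did 2 groups of that order that share a line or a sponge differ by the test. Group means of single members spanned 0.10 to 0.43, beside a median span of 0.33 over all genes, and 4.04% of all genes spanned 1 or more. No member reached a span of 1, which was the least asked before other genes would be matched to its pattern, so none were matched.

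The 24 probe sets that name a member alone did not read their genes alike. Their means over the 12 arrays ran from 4.36 to 6.75, and 12 of the 24 were below the array median on all 12 arrays. In MMS1, 1 of 24 was called, where 10.3% of all probe sets were, and in RPMI8226 0 of 24, where 0.196% were. Of the 24, 3 had an unadjusted p under 0.05 in MMS1 and 0 in RPMI8226, beside 12261 and 7459 of all 54613 probe sets. Groups did not overlap for 5 of 24 in MMS1 and 1 of 24 in RPMI8226, against 26.7% and 21.9% of all probe sets. For the difference of the effects and for both comparisons of the lines, 0 of 24 were called, where 5.1%, 8.18% and 17.7% of all probe sets were.

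The called probe set was 215240_at, 1 of 7 that name ITGB3. Its signal was 5.32, 5.27 and 5.11 on the MMS1 control arrays and 6.07, 5.66 and 5.85 on the MMS1 sponge arrays. In RPMI8226 it was 5.62, 5.41 and 5.38 on the control arrays and 5.46, 5.17 and 6.02 on the sponge arrays. All 3 MMS1 sponge arrays were above all 3 controls, while the RPMI8226 groups overlapped. It rose by 0.63 ± 0.18 (SE) in MMS1 (limma, adjusted p = 0.0451), and its difference in RPMI8226 was 0.08 (limma, adjusted p = 0.896). The effects were not shown to differ between the lines, with a difference of -0.55 (limma, adjusted p = 0.28). The call held when MMS1 miR-16 sponge replicate 2 or RPMI8226 miR-16 sponge replicate 2 or 3 was left out, and leaving out each of the 9 other arrays ended it (adjusted p = 0.0514 to 0.149). The other 6 ITGB3 probe sets changed by -0.29 to 0.07 in MMS1 and none was called, so the gene as a whole is not shown to have risen.

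Probe set means ran from 4.75 to 5.88 for ITGA2B and from 5.04 to 6.41 for ITGB3. FLI1 and ITGA2B had probe sets of both signs in MMS1. The 6 FLI1 probe sets ran from -0.21 to 0.39 in MMS1, with 3 positive and 3 negative, and the 4 ITGA2B probe sets ran from -0.32 to 0.28, with 2 of each sign. In RPMI8226 5 of the 6 FLI1 probe sets were positive and all 4 ITGA2B probe sets were negative, and none was called. VWF had a second probe set at a mean of 4.36, near the lower bound, where the one used stood at 6.55. Both VWF and both TUBB1 probe sets were positive in MMS1, and none was called. Both TUBB1 probe sets had means under 5.5. GP1BA, GP9 and PF4 rested on 1 probe set each.

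**Figure D2:**
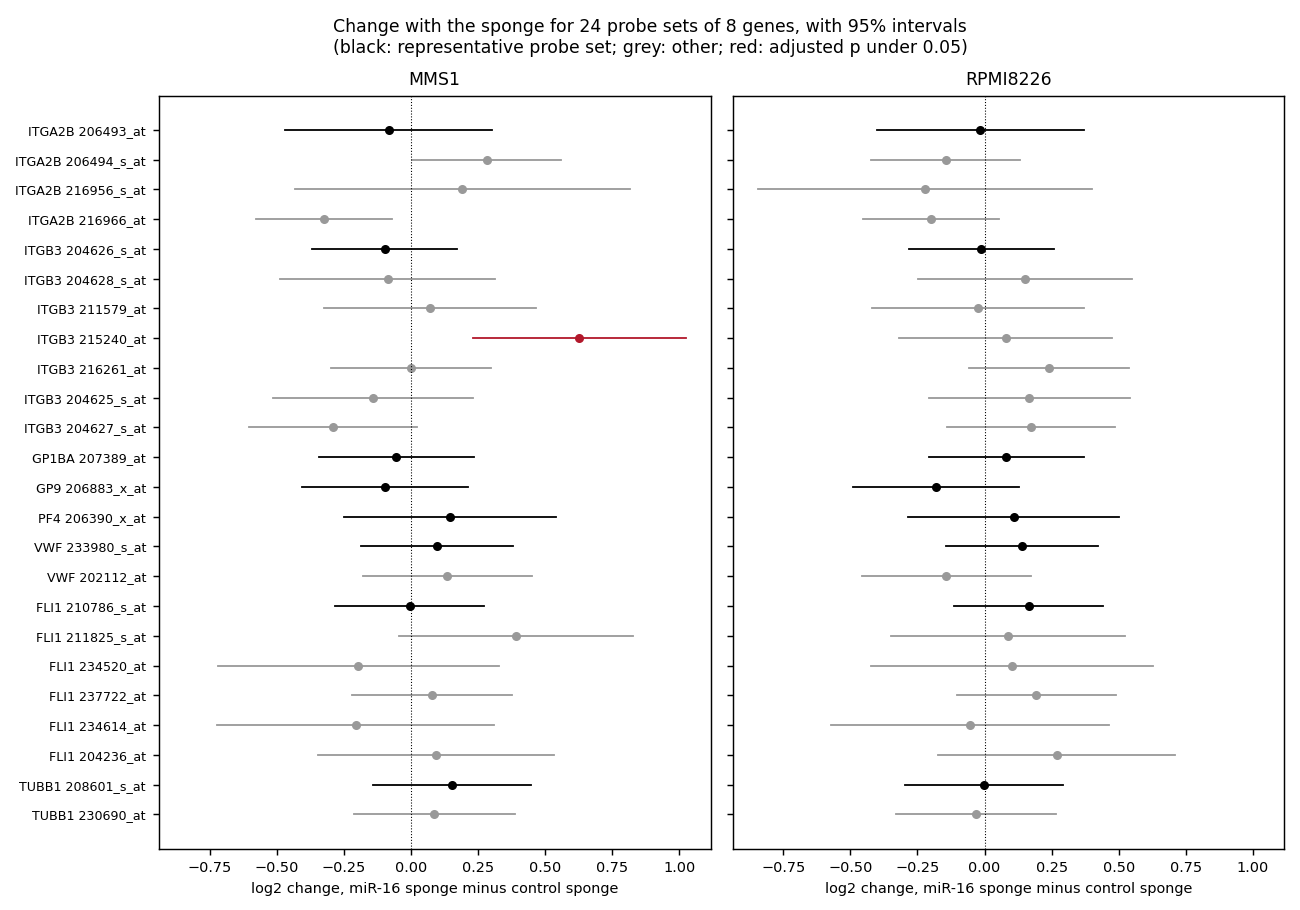
Log2 change with the miR-16 sponge for the 24 probe sets that name a member alone, MMS1 on the left and RPMI8226 on the right, with 95% intervals. Black points are the probe sets used for each gene, grey points the others, and the 1 red point is the ITGB3 probe set that was called in MMS1, at 0.63.

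RUNX1 encodes the DNA-binding core of a transcription factor needed for platelet formation. The annotation gives each of its 13 probe sets to RUNX1 together with LOC100506403 and LOC101928269, noncoding RNA genes of the same chromosome, so no value here belongs to RUNX1 alone. Of the 13 probe sets, 12 lay between 4.50 and 6.53 on every array. The remaining probe set, 211620_x_at, lay between 11.46 and 11.65 on all 12 arrays and had the smallest spread, with an SD of 0.05. Its change was 0.08 in MMS1 (limma, adjusted p = 0.664) and -0.05 in RPMI8226 (limma, adjusted p = 0.852). Its x_at name marks probes that can bind other transcripts, and the 12 others do not share its level, so it is not taken as the level of RUNX1. With the sponge 0 of 13 were called in MMS1, where 10.3% of all probe sets were, and 0 of 13 in RPMI8226, where 0.196% were. An unadjusted p under 0.05 was reached by 0 of 13 in MMS1 and 1 of 13 in RPMI8226. Of all 54613 probe sets, 12261 and 7459 reached it.

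Of the shared probe sets, 1563591_at had the lowest p between the control arrays of the lines. It read 5.24, 5.41 and 5.16 on the MMS1 control arrays and 5.32, 5.50 and 5.38 on the MMS1 sponge arrays. It read 6.21, 6.17 and 6.25 on the RPMI8226 control arrays and 5.71, 5.86 and 5.48 on the RPMI8226 sponge arrays. The RPMI8226 control arrays were above all other arrays, and the RPMI8226 sponge arrays overlapped the MMS1 sponge arrays. Without the sponge RPMI8226 was higher than MMS1 by 0.94 ± 0.12 (SE), or 1.92-fold (limma, adjusted p = 0.000197), and this was the only 1 of 13 called there, where 8.18% of all probe sets were, so the count is near that share. With the sponge its RPMI8226 difference was -0.53 ± 0.12 (SE), with an adjusted p of 0.0872 in limma, and it passed when only brighter probe sets were tested (adjusted p = 0.0235) or with a trended, robust prior (adjusted p = 0.0414). The sponge effects of the lines differed by -0.66 ± 0.16 (SE) (limma, adjusted p = 0.0369). That call held when MMS1 control replicate 2, MMS1 sponge replicate 1 or RPMI8226 sponge replicate 2 was left out, and leaving out each of the 9 other arrays ended it (adjusted p = 0.0565 to 0.0902). Among sponge arrays, 2 of 13 were called, where 17.7% of all probe sets were, which is near that share. Both were higher in RPMI8226, 209360_s_at by 0.56 (limma, adjusted p = 0.0346) and 211182_x_at by 0.39 (limma, adjusted p = 0.0328). Fitted on the compared groups alone these stood at adjusted p = 0.0718 and 0.104, and leaving out 1 of 5 and 1 of 4 sponge arrays also ended the calls (adjusted p up to 0.126 and 0.127). For the first these were RPMI8226 replicates 1, 2 and 3 and MMS1 replicates 1 and 2, and for the second RPMI8226 replicates 1, 2 and 3 and MMS1 replicate 2.

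**Figure D3:**
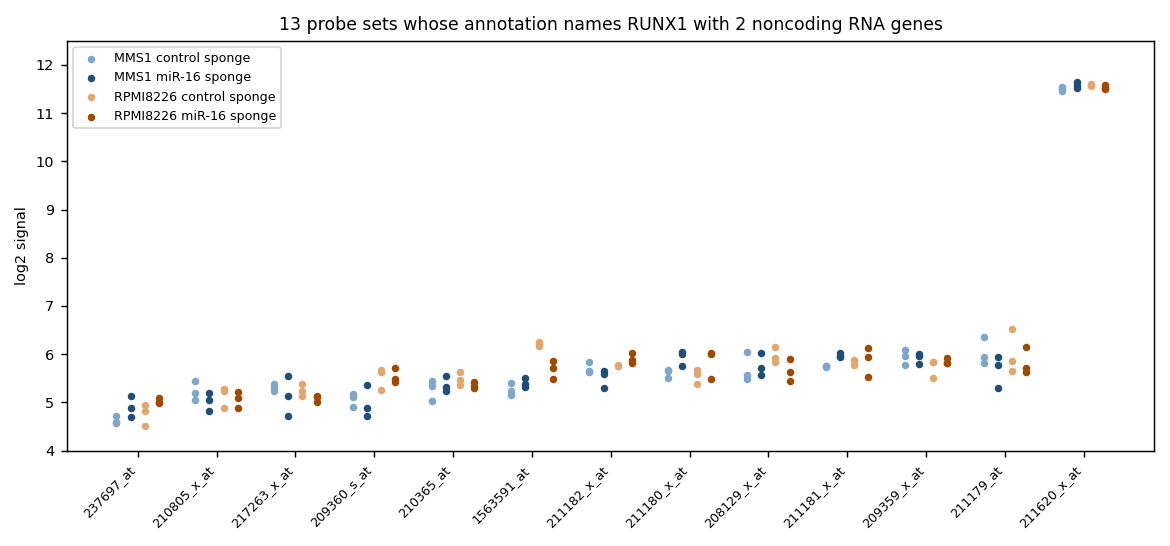
Log2 signal of the 13 probe sets that RUNX1 shares with 2 noncoding RNA genes, by array and coloured by group. Probe set 211620_x_at lies above 11 on all 12 arrays and the other 12 lie between 4.50 and 6.53.

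Other genes of megakaryocytes and platelets, 91 with a probe set of their own, were counted by role. In MMS1 9 of the 91 rose, where 4.34% of all genes rose, and 13 fell, where 8.08% fell. In RPMI8226 0 rose and 0 fell, where 0.0152% and 0.202% of all genes did. There 18 of the 91 had an unadjusted p under 0.05, 3 higher and 15 lower, beside 7459 of all 54613 probe sets. The count that fell in RPMI8226 was 6 with only brighter probe sets, 7 with a trended, robust prior, 2 when the probe sets of a gene were averaged, 3 with MMS1 miR-16 sponge replicate 1 left out and 1 with its replicate 3 left out. Calls over all probe sets there, in either direction, also went up, from 107 to 1078 with brighter probe sets and 1766 with the robust prior. They numbered 723 with MMS1 miR-16 sponge replicate 1 left out. The count that fell in MMS1 was 8 without MMS1 control replicate 1. The median change over the 91 was -0.04 in MMS1 and -0.05 in RPMI8226, beside the values of all genes given above. Of the genes named below, CD36, NFE2, GATA2 and LCP2 were called lower in RPMI8226 with brighter probe sets only (adjusted p up to 0.048) and with the robust prior (adjusted p up to 0.0193), and GATA1 with the latter. The erythroid markers moved in the same arrays. In MMS1 2 of 10 were higher and 4 lower with the sponge, among them the erythroid factor KLF1 at -1.85, and in RPMI8226 1 was higher and 1 lower. HBB, the adult beta-globin gene, read by an x_at probe set, rose by 2.91 in MMS1 (limma, adjusted p = 1.06e-09) and by 3.16 in RPMI8226 (limma, adjusted p = 2.84e-09), and was the called gene that was higher there. GATA1 is counted both among these markers and among the 91 genes. Summed over the 10 markers the erythroid signal was 96.8 to 97.8 on MMS1 control arrays and 93.4 to 94.2 on MMS1 sponge arrays, and 97.7 to 98.3 and 100.9 to 101.2 on the RPMI8226 arrays. In MMS1 the sum fell although HBB, 1 of the 10 summed, rose by 2.91, and 2 markers were called higher and 4 lower. In RPMI8226 the sum rose, and HBB alone rose by 3.16. Neither sum shows a shift of the whole set. Of 7 T cell markers 1 was higher in MMS1 and 0 in RPMI8226, and their sum was 39.5 to 40.9 on MMS1 control arrays and 45.9 to 47.3 on MMS1 sponge arrays. That gene was CD3D, which rose by 5.64 (limma, adjusted p = 2.44e-11), while the other T cell markers had changes of -0.07 to 0.32 and were not called. On the RPMI8226 arrays the T cell sum was 39.4 to 41.3 with the control sponge and 39.8 to 41.1 with the miR-16 sponge. The part of the erythroid and T cell markers in the results below was not tested.

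**Figure D4:**
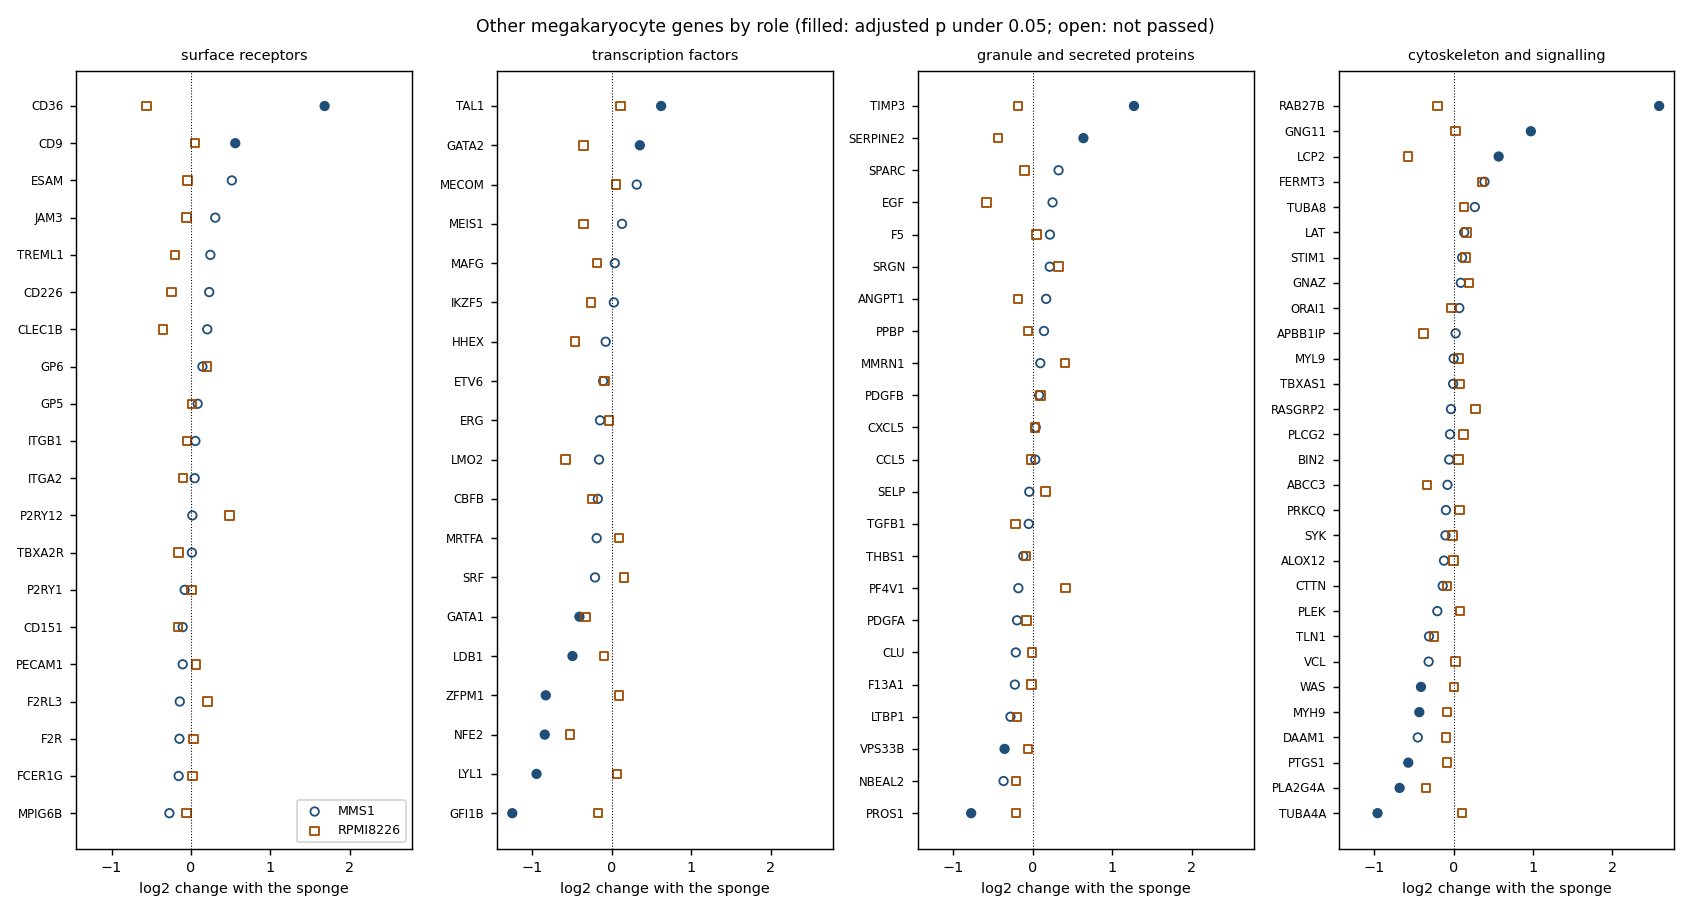
Log2 change with the sponge for 91 other megakaryocyte genes in 4 groups of roles, in MMS1 and RPMI8226. Filled symbols passed an adjusted p of 0.05; 9 rose and 13 fell in MMS1, and none passed in RPMI8226.

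Of 19 transcription factor genes measured, 17 were above the array median on all 12 arrays. The median level of the 19 was 7.94, beside 6.44 over all genes. In MMS1 2 of the 19 rose and 6 fell, where 4.34% and 8.08% of all genes did. Their median change was -0.16. GFI1B, a repressor needed for both red cells and platelets, read 8.60, 8.56 and 8.59 on the MMS1 control arrays and 7.49, 7.11 and 7.40 on the sponge arrays. In RPMI8226 it read 8.09, 7.95 and 7.99 with the control sponge and 7.79, 7.88 and 7.84 with the miR-16 sponge. It fell by 1.25 on the log2 scale in MMS1 (limma, adjusted p = 7.85e-06), its difference in RPMI8226 was -0.18 (limma, adjusted p = 0.514), and the effects differed by 1.08 (limma, adjusted p = 0.00118). LYL1, a relative of TAL1, fell by 0.95 in MMS1 (limma, adjusted p = 0.000216), with 0.06 in RPMI8226 and a difference of the effects of 1.01 (limma, adjusted p = 0.0039). NFE2, which drives TUBB1 and the release of platelets, read 9.33, 9.32 and 9.38 on the MMS1 control arrays and 8.65, 8.56 and 8.31 on the sponge arrays. It fell by 0.84 in MMS1 (limma, adjusted p = 0.000178), while its difference in RPMI8226 was -0.53 (limma, adjusted p = 0.0661) and the effects were not shown to differ (limma, adjusted p = 0.279). TUBB1 itself was below the array median on all 12 arrays and did not pass the test, as given above. A link between NFE2 and TUBB1 signal was not tested. In RPMI8226 NFE2 passed with brighter probe sets only, with the robust prior, with averaged probe sets and without MMS1 sponge replicate 1 or 3 (adjusted p = 0.0145, 0.00133, 0.0295, 0.0276 and 0.0492).

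GATA1, the master factor of both lineages, fell by 0.41 in MMS1 (limma, adjusted p = 0.0158), and its cofactor ZFPM1 by 0.83 (limma, adjusted p = 0.000102). LDB1, which bridges GATA1 and TAL1, fell by 0.50 (limma, adjusted p = 0.00285). GATA2, which precedes GATA1 in development, rose by 0.35 (limma, adjusted p = 0.0392) and TAL1, its partner in stem and progenitor cells, by 0.62 (limma, adjusted p = 0.00296). The ZFPM1 effect differed between the lines by 0.92 (limma, adjusted p = 0.00162) and that of GATA2 by -0.71 (limma, adjusted p = 0.0112). For GATA1 the effects were not shown to differ, with -0.33 in RPMI8226 (limma, adjusted p = 0.161) and a difference of 0.08 (limma, adjusted p = 0.825). Several of these calls were not firm. ZFPM1 was -0.29 (adjusted p = 0.183) and TAL1 0.30 (adjusted p = 0.0986) when their probe sets were averaged. The call of GATA2 held only when an RPMI8226 sponge array was left out (adjusted p = 0.0518 to 0.135 without each of the 9 others), and that of GATA1 was lost without MMS1 control replicate 1 or 3 or MMS1 sponge replicate 3 (adjusted p = 0.0557 to 0.0742). Fitted on MMS1 alone they stood at adjusted p = 0.0991 and 0.0677.

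**Figure D5:**
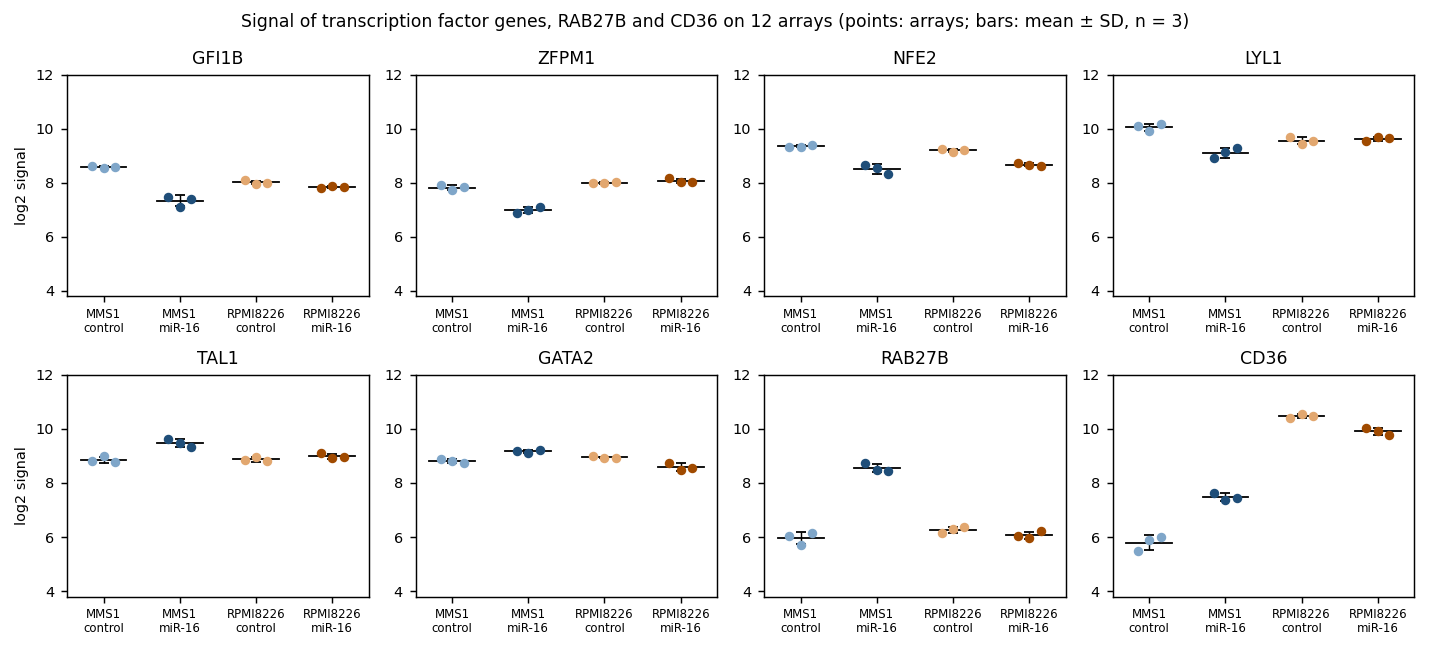
Log2 signal of 6 transcription factor genes, RAB27B and CD36 in the 4 groups; points are arrays and bars the mean ± SD of 3 arrays. GFI1B reads 8.56 to 8.60 on MMS1 control arrays and 7.11 to 7.49 on MMS1 sponge arrays, and CD36 separates the lines most among the 8 genes shown.

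Of 20 surface receptors 2 rose and 0 fell in MMS1, where 4.34% and 8.08% of all genes did. CD36, a scavenger receptor of platelets, red cell precursors and other cells, read 5.48, 5.91 and 6.0 on the MMS1 control arrays and 7.65, 7.36 and 7.43 on the sponge arrays. In RPMI8226 it read 10.41, 10.53 and 10.48 with the control sponge and 10.03, 9.94 and 9.77 with the miR-16 sponge. The lines stood far apart, by 4.68 without the sponge (limma, adjusted p = 5.3e-10). CD36 rose by 1.68 in MMS1, or 3.21-fold (limma, adjusted p = 5.18e-06), and its difference in RPMI8226 was -0.56 (limma, adjusted p = 0.114). The effects differed by -2.24 (limma, adjusted p = 2.27e-05). CD9, a tetraspanin of platelets and many other cells, rose by 0.56 (limma, adjusted p = 0.0105), but over its 3 probe sets the mean change was 0.07 (adjusted p = 0.757). GP5, a partner of GP1BA and GP9 in the GPIb-IX-V complex, and the collagen receptor GP6 had changes of 0.08 and 0.14 in MMS1 (limma, adjusted p = 0.773 and 0.702). GP5 signal had group means of 4.78 to 4.95.

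Of 23 genes of granule and secreted proteins, 2 rose and 2 fell in MMS1, where 4.34% and 8.08% of all genes did. TIMP3, an inhibitor of metalloproteinases, rose by 1.27 (limma, adjusted p = 7.34e-05), and the effects differed between the lines by -1.46 (limma, adjusted p = 0.000933). SERPINE2, an inhibitor of thrombin, rose by 0.64 (limma, adjusted p = 0.0105), but the mean difference over its 2 probe sets was 0.23 (adjusted p = 0.221), and without MMS1 control replicate 3 it missed the threshold (adjusted p = 0.0515). PROS1, the anticoagulant protein S, fell by 0.77 (limma, adjusted p = 0.000423). VPS33B, needed to form alpha granules, fell by 0.35 (limma, adjusted p = 0.0364). It lost that call without any 1 of the 6 MMS1 arrays or RPMI8226 control replicate 2 or 3 (adjusted p = 0.0535 to 0.112). PPBP, the granule chemokine beside PF4 in platelets, had group means of 4.86 to 5.03 and a change of 0.14 in MMS1 (limma, adjusted p = 0.652).

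Of 29 genes of the cytoskeleton and signalling, 3 rose and 5 fell in MMS1, where 4.34% and 8.08% of all genes did. RAB27B, a small GTPase of granule release, read 6.05, 5.70 and 6.15 on the MMS1 control arrays and 8.73, 8.50 and 8.43 on the sponge arrays. In RPMI8226 it read 6.15, 6.30 and 6.37 with the control sponge and 6.03, 5.97 and 6.22 with the miR-16 sponge. The 3 MMS1 sponge arrays stood above the other 9, and RAB27B rose by 2.59, or 6.01-fold (limma, adjusted p = 6.55e-08). The effects differed by -2.79 (limma, adjusted p = 2.04e-06). Only 1 of the 3 RAB27B probe sets was called, and the lowest change among them was 0.09. GNG11, a G protein subunit of platelets, rose by 0.97 (limma, adjusted p = 0.00102) and the adaptor LCP2 by 0.57 (limma, adjusted p = 0.0149). Of their probe sets, 1 of 2 for GNG11 and 2 of 6 for LCP2 were called, with lowest changes of 0.09 and 0.01. LCP2 missed the threshold without MMS1 control replicate 2 or MMS1 sponge replicate 1 (adjusted p = 0.0669 and 0.0502). PTGS1 and PLA2G4A, enzymes of the thromboxane pathway, fell by 0.57 (limma, adjusted p = 0.0068) and 0.68 (limma, adjusted p = 0.00105). All 4 PTGS1 probe sets were lower and called. MYH9, the myosin heavy chain of platelets, fell by 0.43 (limma, adjusted p = 0.0162) and WAS, an actin regulator, by 0.41 (limma, adjusted p = 0.0312). MYH9 lost its call without MMS1 control replicate 1 or MMS1 sponge replicate 2 or 3 (adjusted p = 0.062 to 0.0701), and WAS without any MMS1 array except sponge replicate 3 (adjusted p = 0.0733 to 0.0999). TUBA4A, an alpha-tubulin of platelets, fell by 0.96 (limma, adjusted p = 0.014) with values of 7.94, 8.96 and 9.10 on the MMS1 sponge arrays, and by 0.59 without sponge replicate 1, the array unlike the rest in 18S (adjusted p = 0.00254). Without MMS1 control replicate 1 its adjusted p was 0.0513. Fitted on MMS1 alone, CD9, VPS33B, MYH9, TUBA4A and WAS missed the threshold (adjusted p = 0.0552 to 0.0898), VPS33B and WAS also did under quantile normalization (adjusted p = 0.0813 and 0.0625), and so did WAS with its 2 probe sets averaged (adjusted p = 0.211).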

How the data were processed

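Transcripts were measured on 12 Affymetrix arrays, 3 in each of 4 groups read from the labels. Per the labels' protocols, target was made from 15 µg of total RNA by linear amplification in 2 rounds and carried biotin. The authors deposited log2 signals, and these were used as they stand. Probe summary and array scaling are not given in the sources used here. Affymetrix control probe sets, 62 in number, were left out, and 54613 were tested. Genes were named from the platform annotation, updated to the GRCh38.p14 gene table, and a gene is represented by the probe set, among those that name it alone, with the highest mean. Probe sets naming several genes were counted under none.

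With limma 3.58.1 (R 4.3.3), 4 group means were estimated from the 12 arrays together and 5 comparisons drawn from them; the script was tested on simulated data. Tables and figures used Python 3.11.15, pandas 2.3.3 and matplotlib 3.10.9. The members and lists were chosen with earlier results of these data known. Named were the members and, in each role and sponge comparison, up to 4 called genes with the smallest p. Genes behind counts of 5 or fewer were named in part, and some marker genes and probe sets behind such counts were not. KLF1, HBE1, GP5, GP6, PPBP, PF4V1, GATA1, LDB1, HBB and CD3D were chosen after their values were seen. Alternatives were quantile normalization, brighter probe sets only, the replicate number as a block, a trended and robust prior, the compared groups alone, the mean over a gene's probe sets, and leaving out each array. Applying them to the other megakaryocyte genes, and to further or shared probe sets, was chosen after seeing the data.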

Additional observations from a re-analysis of the deposited data

Results flagged for a closer look

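The effects of the sponge differed between the lines, by the interaction test of limma, for 11 of the 91 other megakaryocyte genes, where 5.9% of all genes were called, and for 1 of the 13 probe sets that RUNX1 shares, where 5.1% of all probe sets were. Each value is the RPMI8226 effect minus the MMS1 effect on the log2 scale. Among the transcription factors the values were 1.08 for GFI1B, 1.01 for LYL1, 0.92 for ZFPM1 and -0.71 for GATA2 (limma, adjusted p = 0.00118, 0.0039, 0.00162 and 0.0112). For ZFPM1 the value was 0.40 with its probe sets averaged, which did not pass (adjusted p = 0.258). Among the other genes they were -2.79 for RAB27B, -2.24 for CD36, -1.46 for TIMP3, -1.14 for LCP2, -1.07 for SERPINE2 and -0.95 for GNG11 (limma, adjusted p = 2.04e-06, 2.27e-05, 0.000933, 0.00332, 0.00716 and 0.0219). With probe sets averaged, LCP2, SERPINE2 and GNG11 did not pass (adjusted p = 0.103, 0.196 and 0.26), nor did GNG11 without MMS1 control replicate 2 or RPMI8226 control replicate 2 (adjusted p = 0.0547 and 0.0602). PF4V1, the near copy of PF4, stood at 0.59 (limma, adjusted p = 0.0389), with group means of 4.32 to 4.82 near the lower bound, and kept its call with MMS1 control replicate 1 or RPMI8226 miR-16 sponge replicate 1 left out but not without any of the other arrays (adjusted p = 0.0545 to 0.0943). It did not pass with a trended, robust prior (adjusted p = 0.15) or when replicates were blocked by their number (adjusted p = 0.0582). The probe set 1563591_at, which RUNX1 shares with noncoding RNA genes, stood at -0.66 (limma, adjusted p = 0.0369). No member with a probe set of its own passed the interaction test.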

How the results depend on the processing

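For the 8 members, 0 were called in any of the 5 comparisons under any alternative. Of 702 values of members under alternatives, 646 kept their direction, 56 changed sign without a call, and the smallest adjusted p was 0.0739. With probe sets averaged the sign turned for ITGA2B, ITGB3 and FLI1 in MMS1 (0.018, 0.013 and 0.027), for ITGB3 and VWF in RPMI8226 (0.11 and -0.0026), for ITGA2B and VWF in the difference of effects (-0.16 and -0.12), for FLI1 and TUBB1 between control arrays (-0.16 and -0.087) and for ITGA2B and FLI1 between sponge arrays (-0.067 and -0.058). It turned in RPMI8226 also for TIMP3 (0.012) and LCP2 (0.054). Under quantile normalization it turned for FLI1 in MMS1 (0.029), for ITGB3, VPS33B and MYH9 in RPMI8226 (0.0030, 0.00031 and 0.014) and for FLI1 and TUBB1 between control arrays (-0.0047 and -0.027). Leaving out 1 array turned the sign, with these ranges. In MMS1 they were -0.21 to 0.12 for ITGA2B, -0.19 to 0.0094 for ITGB3, -0.17 to 0.092 for GP1BA, -0.022 to 0.21 for VWF, -0.070 to 0.097 for FLI1 and -0.26 to 0.055 for the shared probe set 209360_s_at. In RPMI8226 they were -0.15 to 0.10 for ITGA2B, -0.070 to 0.055 for ITGB3, -0.099 to 0.25 for PF4, -0.062 to 0.10 for TUBB1, -0.12 to 0.025 for VPS33B, -0.11 to 0.18 for GNG11, -0.034 to 0.088 for WAS, -0.16 to 0.27 for ITGB3 probe set 215240_at and -0.10 to 0.10 for 209360_s_at. For the difference of effects they were -0.13 to 0.19 for ITGA2B, -0.021 to 0.18 for ITGB3, -0.011 to 0.25 for GP1BA, -0.22 to 0.037 for GP9, -0.25 to 0.11 for PF4, -0.069 to 0.16 for VWF and -0.027 to 0.29 for 209360_s_at. Between control arrays they were -0.070 to 0.072 for ITGB3, -0.29 to 0.067 for PF4, -0.027 to 0.20 for VWF and -0.11 to 0.092 for TUBB1, and between sponge arrays -0.024 to 0.18 for ITGB3. Of all probe sets, 5635 were called in MMS1, 107 in RPMI8226, 2786 for the difference, 4465 between control and 9692 between sponge arrays. Fitting only the compared groups gave 3735 in MMS1, 8 in RPMI8226 and 6374 between sponge arrays, and 8 instead of 13 other megakaryocyte genes that fell in MMS1. Brighter probe sets alone gave 1078 in RPMI8226 and 4487 for the difference, and a trended, robust prior 1766 and 4649. The cause was not tested. Other megakaryocyte genes that fell in RPMI8226 were 6, 7 and 2 with brighter probe sets, the robust prior and averaged probe sets. Leaving out 1 array gave 3730 to 5570 probe sets in MMS1, lowest without control replicates 3 and 1 (3739), 22 to 723 in RPMI8226, highest with the first MMS1 miR-16 sponge array left out, 1845 to 2797 for the difference, lowest without RPMI8226 miR-16 sponge replicate 2 and RPMI8226 control replicate 3 (1854), and 2747 to 5379 between control arrays, lowest without MMS1 control replicate 1. It gave 8 to 13 other megakaryocyte genes that fell in MMS1 and 0 to 3 in RPMI8226. Residuals of same-numbered arrays correlated at -0.0748 to 0.0577 over 18 pairs, and those of differently numbered arrays at -0.0640 to 0.0929 over 36 pairs. The residuals thus showed no pairing by number, which does not tell whether same-numbered arrays were handled together. With the replicate number as a block 32 probe sets were called in RPMI8226 and 0 members in any comparison, and GATA2, VPS33B and WAS in MMS1 missed the threshold (adjusted p = 0.0539, 0.06 and 0.0554), as did PF4V1 for the difference (adjusted p = 0.0582). For probe sets near the lower bound of 4, signal over background limits what a change could show.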
